A study of Mus musculus with 3 samples.

Results

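Canonical Wnt signaling and its secreted inhibitors were examined through 10 genes, chosen by name out of the 18738 genes in the count tables: the target and feedback genes Axin2, Nkd1, Sp5, Lef1 and Notum, and the secreted antagonists Dkk2, Dkk3, Sfrp1, Sfrp2 and Wif1. All 10 genes were in the tables and all 10 passed the filter on low counts. The data are UMI counts, that is counts of distinct captured transcript molecules, from 10X Genomics 3′ scRNA-seq of fetal ovarian somatic cells (FOSCs). Each of the 3 samples was a lot (lots 26, 29 and 30) of E12.5 ovarian cells from the embryos of 10 pregnant CD1 mice, pooled, depleted of germ cells with antibodies to SSEA1 and CD31 on magnetic columns, frozen and sequenced after thaw. The lots carried no transgene, mutation or treatment and belonged to 1 condition, so cell classes were compared with each other and the lots served as replicates. CD31 marks endothelial cells as well as germ cells, and the depletion can therefore set how many cells of both classes were left.

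In the canonical pathway, a secreted Wnt ligand binds a Frizzled receptor together with Lrp5 or Lrp6, β-catenin is spared from degradation, and it enters the nucleus to activate genes with factors of the TCF/LEF family. Several of the activated genes dampen the pathway: Axin2 is a scaffold of the complex that degrades β-catenin, Nkd1 binds Dishevelled, and Notum is a secreted enzyme that strips the lipid from Wnt ligands. Dkk proteins act at the Lrp co-receptor (Dkk3 is a divergent member of that family), whereas Sfrp proteins and Wif1 bind the ligands themselves. In the fetal ovary the pathway is known for the ligand Wnt4 and its amplifier Rspo1, which support the ovarian and oppose the testicular fate of the supporting cells.

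The start of Sp5 and that of Axin2 are shown because both genes are textbook direct targets and Sp5 had the largest fold change between pre-granulosa-like and stromal-like cells among the 5 target and feedback genes. Each window runs from 250 bases before to 50 bases after the RefSeq transcription start (GRCm38.p6), on the plus strand, at chr2:70474673-70474972 for Sp5 and chr11:108920099-108920398 for Axin2. The capitals mark the TCF/LEF motif CTTTGAT, which was searched on both strands (ATCAAAG on the other).
Sp5: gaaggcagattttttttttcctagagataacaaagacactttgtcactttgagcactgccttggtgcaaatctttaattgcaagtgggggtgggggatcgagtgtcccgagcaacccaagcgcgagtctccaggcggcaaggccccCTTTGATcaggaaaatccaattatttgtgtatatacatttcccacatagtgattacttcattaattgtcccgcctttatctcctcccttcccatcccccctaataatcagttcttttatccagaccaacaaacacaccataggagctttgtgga
Axin2: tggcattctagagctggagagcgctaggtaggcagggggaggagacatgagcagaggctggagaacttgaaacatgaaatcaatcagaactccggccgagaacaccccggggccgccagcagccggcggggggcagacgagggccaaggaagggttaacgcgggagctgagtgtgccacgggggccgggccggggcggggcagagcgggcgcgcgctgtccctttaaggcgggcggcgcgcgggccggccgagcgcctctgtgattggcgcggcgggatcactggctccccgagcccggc
RefSeq windows were matched by symbol for 7 of the 10 genes, 10 windows in all. Several of these were starts of Lef1. The motif was in 1 of the 10 windows, that of Sp5, 104 bases upstream of the start and on the strand of the gene. It was in 3.73% of the 32851 windows in the table, and in 2.76% of the 17201 windows of genes in the count tables. In GRCm38 the other targets lie at chr8:88521354-88594884 (Nkd1), chr2:70474923-70477729 (Sp5), chr3:131110471-131224356 (Lef1) and chr11:120653788-120661175 (Notum, minus strand). The antagonists lie at chr3:132085292-132180304 (Dkk2), chr7:112116017-112159057 (Dkk3, minus strand), chr8:23411502-23449632 (Sfrp1), chr3:83766321-83774316 (Sfrp2) and chr10:121033960-121100650 (Wif1). The match describes letters in the window and is not a measured binding site.

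The kept barcodes (200 to 9000 genes and at most 10% mitochondrial UMIs) numbered 28971 of 29103, with 87474664 to 141398825 UMIs per lot and a median of 8949 to 11595 UMIs per kept cell. Pairs of lots shared 19 to 30 barcodes, at most 0.351% of a lot. The members and 60 other Wnt genes were kept out of the clustering, so that their levels did not shape the classes, and 17 of the 20 clusters were named from marker lists. Pre-granulosa-like cells (clusters 0, 1, 3 and 11) were 40.9 to 46.4% of a lot, stromal-like cells (clusters 2, 5, 9 and 12) 21.5 to 22.7% and epithelial-like cells (clusters 4, 6, 8 and 10) 16.8 to 23.5%. Cluster 3, led by heat shock genes among others, held 2284 cells of lot 30 out of 2404. Clusters 2 and 11 each held a marker of another list and none of their own among their 10 leading genes, and the results were recomputed without them. Lot 29 stood apart by Y-linked UMIs: 14.1% of its stromal-like cells had one, against 3.81% in lot 26 and 1.48% in lot 30, and 34.1% of its endothelial-like cells, against 8.62% and 2.30%. Results were therefore also computed without cells that had a Y-linked UMI.

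Levels are given as CPM, the UMIs of a gene per 1000000 UMIs summed over all cells of a class in a lot, and folds and tests are from edgeR's quasi-likelihood test on those sums, with Benjamini-Hochberg adjustment over the 13830 genes tested. The first question was where the pathway's readout genes were high. Axin2, Lef1 and Sp5 were higher in pre-granulosa-like and epithelial-like cells than in stromal-like cells, the antagonists Dkk2, Dkk3, Sfrp1 and Sfrp2 were highest in stromal-like cells, and Wif1 followed neither group. Of the 10 members, 9 were called between pre-granulosa-like and stromal-like cells (4 higher and 5 lower in pre-granulosa-like cells). Among all genes tested 48.6% were called in that comparison, 25.9% higher and 22.7% lower.

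**Figure D1:**
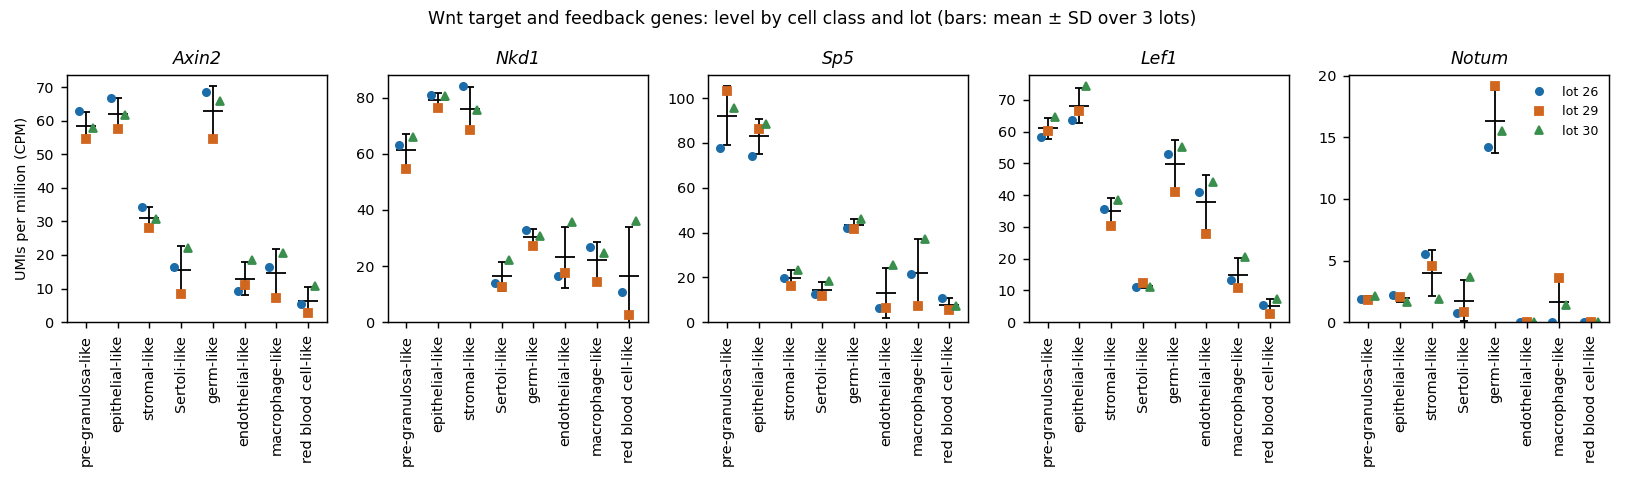
Levels of the 5 target and feedback genes in CPM (linear axes from 0) in 8 cell classes, with 1 point per lot and black bars for the mean and SD over 3 lots. Axin2, Sp5 and Lef1 lie higher in pre-granulosa-like and epithelial-like than in stromal-like cells in every lot, Nkd1 does not, and Notum is highest in germ-like cells.

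Axin2 stood at 62.9, 54.4 and 57.8 CPM in pre-granulosa-like cells of lots 26, 29 and 30, at 66.9, 57.5 and 61.6 CPM in epithelial-like cells, and at 34.3, 28.1 and 30.6 CPM in stromal-like cells. The stromal-like values lay below all values of the other 2 classes. The level in pre-granulosa-like cells was 2.04-fold that in stromal-like cells (log2 fold change 1.03 ± 0.13 SE, adjusted p = 1.14e-07, edgeR). Against epithelial-like cells the difference was -0.04 on the log2 scale, with a 95% interval from -0.28 to 0.20 and an adjusted p of 0.825 (edgeR). Axin2 lies at chr11:108920349-108950783 on the plus strand of GRCm38 and overlaps the antisense gene Gm11670.

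Lef1, a DNA-binding partner of β-catenin and itself a target, stood at 58.3, 60.3 and 64.7 CPM in pre-granulosa-like cells of the 3 lots, at 63.7, 66.5 and 74.4 CPM in epithelial-like cells and at 35.8, 30.4 and 38.6 CPM in stromal-like cells. Again the stromal-like range lay apart from both others, which overlapped. Its log2 fold change between pre-granulosa-like and stromal-like cells was 0.93 ± 0.11 (SE, adjusted p = 1.35e-07, edgeR), and between epithelial-like and stromal-like cells 1.04 ± 0.11 (adjusted p = 4.72e-08).

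Sp5, a zinc finger transcription factor, showed the widest gap between these 3 classes among the 5 genes. It stood at 77.6, 103 and 95.8 CPM in pre-granulosa-like cells, at 74.1, 86.2 and 88.7 CPM in epithelial-like cells, and at 19.6, 16.1 and 23.1 CPM in stromal-like cells. The level in pre-granulosa-like cells was 5.11-fold that in stromal-like cells (log2 fold change 2.35 ± 0.20 SE, adjusted p = 2.41e-10, edgeR), and with called doublets left out the log2 fold change was 3.03. Against epithelial-like cells the log2 difference was 0.20, with a 95% interval from -0.17 to 0.57 (adjusted p = 0.418). Within the stromal-like class the UMIs of Sp5 were uneven: cluster 12 had 13.05% of the cells and 41.4% ± 4.8 (SD, n = 3 lots) of the Sp5 UMIs. Sp5 stood at 47.6 ± 11.1 CPM in cluster 12 and at 6.61 ± 3.32 CPM in cluster 9.

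Nkd1 did not follow the other readouts. It stood at 63.3, 54.7 and 65.9 CPM in pre-granulosa-like cells, at 80.8, 76.2 and 80.5 CPM in epithelial-like cells and at 84.0, 68.6 and 75.6 CPM in stromal-like cells. The stromal-like and epithelial-like ranges overlapped, and the pre-granulosa-like values were the lowest of the 3 classes within each lot. In the model without a term for the lot, edgeR called Nkd1 in no comparison of these 3 classes (adjusted p from 0.0574 to 0.523). Against epithelial-like cells it was called lower by DESeq2 (adjusted p = 0.0331), with cells thinned to 4000 UMIs (0.0313) and without clusters 2 and 11 (0.0180). With the lot as a replicate block, since the sums of a lot come from 1 pool of cells, it was called lower in pre-granulosa-like cells both against epithelial-like cells (-0.32 on the log2 scale, adjusted p = 0.0014) and against stromal-like cells (-0.19, adjusted p = 0.0471).

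Notum was at low levels in all 3 large classes. It stood at 1.85, 1.76 and 2.16 CPM in pre-granulosa-like cells, at 2.20, 2.03 and 1.63 CPM in epithelial-like cells and at 5.52, 4.59 and 1.87 CPM in stromal-like cells. Lot 30 of the stromal-like class fell within the range of the other classes. Notum was called lower in pre-granulosa-like than in stromal-like cells (log2 fold change -0.91 ± 0.29 SE, adjusted p = 0.0115, edgeR), but the call was lost without lot 26 (-0.51, adjusted p = 0.279) and without lot 29 (-0.78, adjusted p = 0.105). Notum was also called lower in epithelial-like than in stromal-like cells (-0.95, adjusted p = 0.0166), a call lost without lot 26 (adjusted p = 0.198) and without lot 29 (0.111). With clustering at resolution 1.2 both calls were lost (adjusted p = 0.0880 and 0.443).

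The class values of Notum hid a division between clusters. Cluster 11, led by Lypd1, Pax8 and Stra6, had 7.06% of the pre-granulosa-like cells and 82.2% ± 6.3 (SD, n = 3 lots) of their Notum UMIs. In that cluster Notum stood at 22.6, 31.9 and 25.9 CPM in the 3 lots, whereas in clusters 0, 1 and 3 it averaged 0.370, 0.505 and 0.104 CPM. In cluster 3 no Notum UMI was found in lots 26 and 29, which had 32 and 88 cells there, and lot 30 stood at 0.311 CPM. Without clusters 2 and 11 the log2 fold change of pre-granulosa-like against stromal-like cells was -3.65 (adjusted p = 2.2e-08, edgeR), and that against epithelial-like cells turned from 0.05 to -2.27 (adjusted p = 3.97e-05). Since cluster 11 held most of these UMIs, lower values follow from leaving it out. Cluster 2 had the least Notum of the stromal-like clusters (1.10 ± 0.17 CPM), so leaving it out raised the stromal-like level. Cluster 11 was also the highest pre-granulosa-like cluster for Axin2, at 109, 101 and 112 CPM against 50.9 to 63.7 CPM on average in the other 3 clusters, and for Nkd1, at 146, 135 and 136 CPM against 52.1 to 67.2 CPM. Lef1 in cluster 11, at 71.5 ± 8.3 CPM, did not stand apart from cluster 3 at 77.2 ± 13.9 CPM. Cluster 11 is a group found in the data, so these differences are descriptions.

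Leaving out cluster 3, the one that came mostly from lot 30, left Axin2 in pre-granulosa-like cells at 62.8, 54.2 and 56.9 CPM and Nkd1 at 63.3, 54.8 and 68.5 CPM. Notum in lot 30 stood at 3.63 CPM without cluster 3 and at 2.16 CPM with it.

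**Figure D2:**
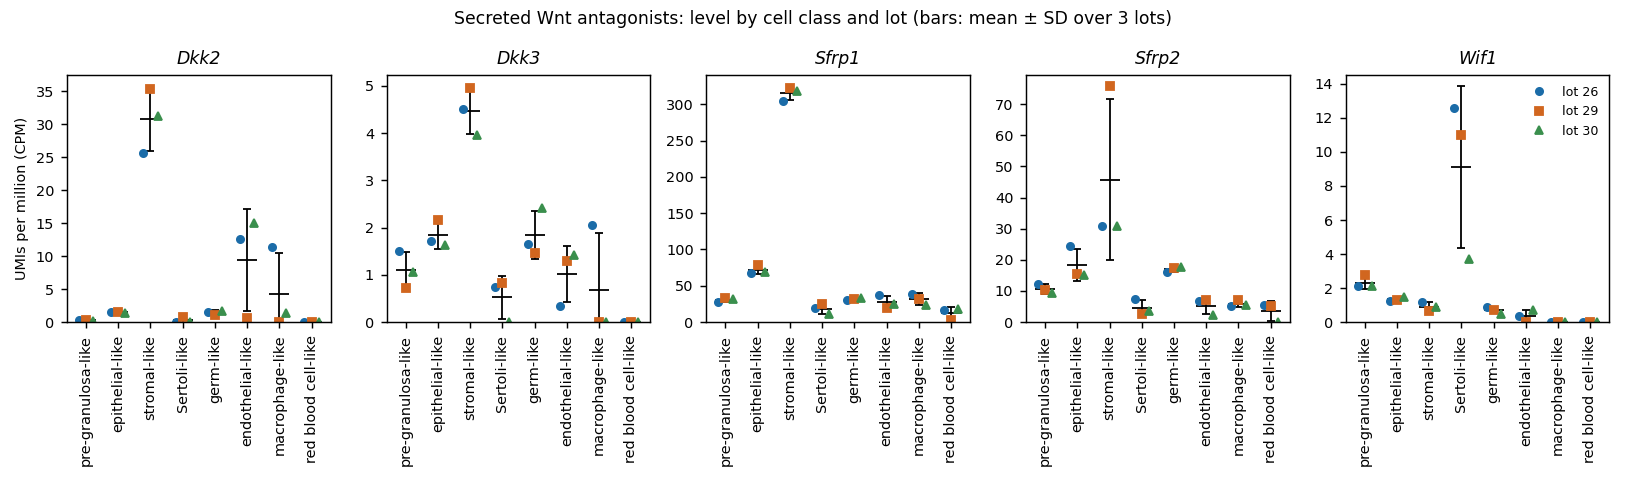
Levels of the 5 secreted antagonists in CPM (linear axes from 0) in 8 cell classes, with 1 point per lot and black bars for the mean and SD over 3 lots. Dkk2, Dkk3, Sfrp1 and Sfrp2 are highest in stromal-like cells, Sfrp2 with lot 29 far above the other lots, and Wif1 is highest in Sertoli-like cells.

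Among the antagonists, Dkk2 had the widest difference between classes. It stood at 25.7, 35.4 and 31.3 CPM in stromal-like cells, at 1.49, 1.59 and 1.32 CPM in epithelial-like cells and at 0.337, 0.299 and 0.242 CPM in pre-granulosa-like cells. The 3 classes did not overlap, and the pre-granulosa-like level rested on 39 UMIs in 12794 cells. The log2 fold change between pre-granulosa-like and stromal-like cells was -6.58 ± 0.35 (SE, adjusted p = 9.41e-14, edgeR), and between epithelial-like and stromal-like cells -4.33 ± 0.30 (adjusted p = 3.29e-11).

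Dkk2 was unevenly spread in the stroma too. Cluster 12, led by Dkk2 itself with Foxd1, Nefm and Shisa3, held 13.05% of the stromal-like cells and 64.3% ± 11.2 of their Dkk2 UMIs. Dkk2 stood there at 84.4, 148 and 116 CPM, and at 38.2 ± 4.2 CPM in cluster 9, 16.9 ± 2.3 CPM in cluster 5 and 0.788 ± 0.523 CPM in cluster 2. Without cluster 12 the stromal-like level was 12.9 ± 1.81 CPM. Among epithelial-like clusters, cluster 10 (led by Krt19, S100a6 and Cryab) had the most, 6.17 ± 2.35 CPM. The stromal marker list also qualified in cluster 10, with a lower score than the epithelial list. Cluster 10 was the highest epithelial-like cluster for Nkd1 (117 ± 9.07 CPM), Sfrp1 (145 ± 4.50 CPM) and Sfrp2 (43.6 ± 16.6 CPM) too.

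Sfrp1 was high in stromal-like cells of every lot, at 304, 323 and 318 CPM, against 68.0, 79.1 and 69.3 CPM in epithelial-like cells and 27.6, 32.8 and 31.9 CPM in pre-granulosa-like cells. These 3 classes were separate with little spread between lots. The pre-granulosa-like range overlapped those of germ-like (31.1 to 32.7 CPM), endothelial-like (19.4 to 36.7 CPM) and macrophage-like cells (23.4 to 39.2 CPM). The log2 fold change was -3.24 ± 0.16 (SE, adjusted p = 5.26e-15, edgeR) between pre-granulosa-like and stromal-like cells, -2.05 ± 0.15 between epithelial-like and stromal-like cells (adjusted p = 4.95e-11), and -1.18 ± 0.15 between pre-granulosa-like and epithelial-like cells (adjusted p = 4.31e-07). All 4 stromal-like clusters held it, from 256 ± 14.4 CPM in cluster 2 to 584 ± 52.4 CPM in cluster 9 (led by Lum, Ntrk2 and Agtr2). In pre-granulosa-like cluster 1 it averaged 11.01 ± 1.76 CPM, no higher than the 12.3 ± 8.37 CPM of red blood cell-like cells, which should lack it.

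Sfrp2 differed between lots in the stroma. Stromal-like cells had 30.7 CPM in lot 26, 75.7 CPM in lot 29 and 30.8 CPM in lot 30, against 24.3, 15.4 and 15.1 CPM in epithelial-like cells and 12.2, 10.2 and 9.33 CPM in pre-granulosa-like cells. Lots 26 and 30 were almost equal in stroma and lot 29 was far higher. Sfrp2 was called lower in pre-granulosa-like than in stromal-like cells (log2 fold change -1.99 ± 0.26 SE, adjusted p = 2.57e-07, edgeR) and lower in epithelial-like than in stromal-like cells (-1.26 ± 0.25, adjusted p = 2.51e-04). Without lot 29 the last was -0.58 (adjusted p = 0.0366).

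Most of the excess of lot 29 sat in cluster 12, where Sfrp2 stood at 68.6, 304 and 78.3 CPM. Lot 29 was also highest in cluster 9, where cells without a Y-linked UMI had 32.9, 76.3 and 30.6 CPM. With cluster 12 left out, stromal-like cells had 23.7, 29.3 and 19.6 CPM. Cells with a Y-linked UMI were 12.4% of cluster 12 in lot 29, 2.37% in lot 26 and 1.27% in lot 30. When these cells were left out, cluster 12 of lot 29 stood at 326 CPM, against 70.7 CPM in lot 26 and 79.2 CPM in lot 30. All stromal-like cells of lot 29 then stood at 81.1 CPM. Male cells can lack a Y-linked UMI: 75.1% of the Sertoli-like cells of lot 29 had one. The part of male cells in the excess was therefore not tested.

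**Figure D3:**
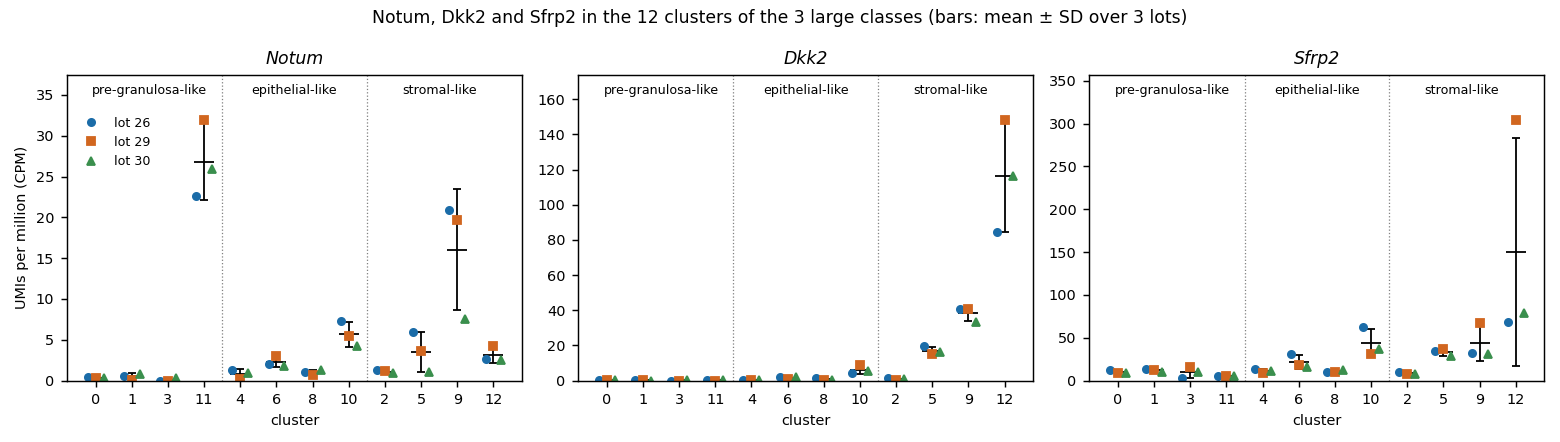
Levels of Notum, Dkk2 and Sfrp2 (CPM, linear axes from 0) in the 12 clusters of the 3 large classes, with 1 point per lot and black bars for the mean and SD over 3 lots. Notum is concentrated in clusters 11 and 9 and Dkk2 in cluster 12. The highest Sfrp2 value is that of lot 29 in cluster 12, and lot 29 is highest in cluster 9 too.

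Dkk3 and Wif1 were at low levels. Dkk3 stood at 4.50, 4.95 and 3.96 CPM in stromal-like cells, at 1.72, 2.16 and 1.63 CPM in epithelial-like cells and at 1.496, 0.731 and 1.05 CPM in the pre-granulosa-like class. Among clusters its mean was highest in stromal-like cluster 9, at 10.9 ± 0.96 CPM. Dkk3 was called lower in pre-granulosa-like than in stromal-like cells (log2 fold change -1.88 ± 0.25 SE, adjusted p = 7.84e-07, edgeR). Its call against epithelial-like cells (-0.67, adjusted p = 0.0388) was lost without lot 29 (-0.38, adjusted p = 0.344) and without lot 30 (-0.69, adjusted p = 0.151). Wif1 had the opposite order, with 2.11, 2.76 and 2.10 CPM in the pre-granulosa-like class, 1.23, 1.30 and 1.46 CPM in the epithelial-like class and 1.18, 0.664 and 0.880 CPM in stromal-like cells. It was the 1 antagonist called higher in pre-granulosa-like than in stromal-like cells (1.43 ± 0.27, adjusted p = 1.01e-04).

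In the comparison of pre-granulosa-like with epithelial-like cells, 5 of the 10 members were called, against 44.8% of all genes tested. The 5 were the 5 antagonists (Wif1 higher, the other 4 lower in pre-granulosa-like cells, beside 24.8% higher and 20.0% lower among all genes), and none of the 5 target and feedback genes passed in the fit without a lot term, where 1 had an unadjusted p under 0.05. DESeq2 called 1 of the 5, Nkd1. The 5 antagonist calls include Sfrp2 at an adjusted p of 0.0197, which was lost without lot 26 (0.164) and without lot 30 (0.0811), and Wif1 at 0.00849, which was lost without lot 29 (0.101). Between epithelial-like and stromal-like cells 8 of the 10 were called (3 higher, 5 lower), against 30.4% of all genes (14.0% higher, 16.4% lower). With the lot as a replicate block 6962 genes in all were called, instead of 4201.

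**Figure D4:**
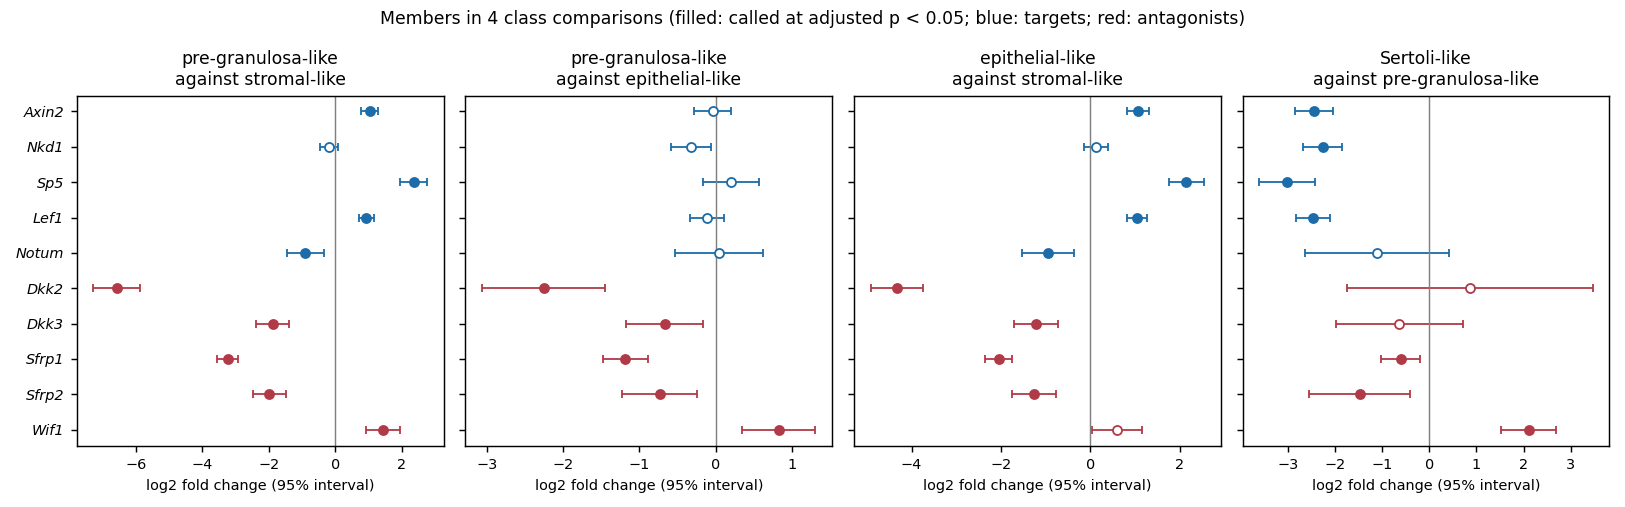
Log2 fold changes of the 10 genes in 4 class comparisons (edgeR, bars: 95% intervals, each panel with its own scale), filled where called at an adjusted p under 0.05. Blue target genes and red antagonists fall on opposite sides of 0 in the comparison of pre-granulosa-like with stromal-like cells, except for Notum, Nkd1 and Wif1, and the 4 targets Axin2, Nkd1, Sp5 and Lef1 are lower in Sertoli-like cells.

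Sertoli-like cells, the supporting cells of the fetal testis, were 88, 285 and 16 cells in lots 26, 29 and 30, of which 75.1 to 93.8% had a Y-linked UMI. They offered a comparison of testicular with ovarian supporting cells inside the same libraries. Of the 10 members 7 were called against pre-granulosa-like cells (1 higher, 6 lower), beside 37.9% of all genes tested (15.2% higher, 22.7% lower). In this comparison the median of all genes was -0.16 on the log2 scale, and -0.07 with RLE size factors. The 4 readouts Axin2, Nkd1, Sp5 and Lef1 were lower by far more than that.

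Axin2 stood at 16.3, 8.26 and 22.2 CPM in Sertoli-like cells (log2 fold change -2.44 ± 0.20 SE, adjusted p = 1.94e-10, edgeR). Sp5 stood at 12.6, 11.6 and 18.5 CPM (-3.01 ± 0.30) and Lef1 at 11.1, 12.4 and 11.1 CPM (-2.47 ± 0.18). Nkd1, which separated the large classes little from each other, stood at 14.1, 12.7 and 22.2 CPM (-2.26 ± 0.21, adjusted p = 2.41e-09). None of these ranges reached the pre-granulosa-like values. For Axin2 and Nkd1 they overlapped those of red blood cell-like cells (2.65 to 10.8 and 2.65 to 35.9 CPM), whereas Sp5 and Lef1 lay above them (5.31 to 10.8 and 2.65 to 7.18 CPM). The red blood cell-like values of Sp5 and Lef1 rest on 1 or 2 UMIs per lot. The Sertoli-like values of lot 30 rest on 5 and 3 UMIs. In macrophage-like cells each of these genes overlapped its Sertoli-like range. The macrophage-like values were 7.13 to 20.7 (Axin2), 14.3 to 26.8 (Nkd1), 7.13 to 37.2 (Sp5) and 10.7 to 20.7 CPM (Lef1). In lot 29 they rest on 2 to 4 UMIs per gene. A difference of Sp5 and Lef1 from Axin2 and Nkd1 in this respect was therefore not shown.

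Wif1 was the exception. It stood at 12.6, 11.01 and 3.69 CPM in Sertoli-like cells, against the 2.11, 2.76 and 2.10 CPM of the pre-granulosa-like class (log2 fold change 2.11 ± 0.30, adjusted p = 6.33e-06, edgeR). The value of lot 30 is 1 UMI in 16 cells, below the 11.1 CPM that 3 counts would give there. With cells thinned to 4000 UMIs the gene was not tested. Sfrp1 and Sfrp2 were called lower (-0.61 and -1.47, adjusted p = 0.0226 and 0.0354), and both calls were lost without lot 26 and without lot 30; that of Sfrp2 was also lost without lot 29 (-0.78, adjusted p = 0.337).

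Germ-like cells that had escaped depletion (750, 337 and 386 cells) were the class with the most Notum. It stood at 14.2, 19.1 and 15.5 CPM, above every value of the other named classes taken as a whole (at most 5.52 CPM). On their own, pre-granulosa-like cluster 11 was higher (26.8 ± 4.71 CPM) and stromal-like cluster 9 about as high (16.0 ± 7.39 CPM). Against the mean of the log2 levels of the 3 large classes the log2 fold change of germ-like cells was 2.69 ± 0.21 (SE, adjusted p = 8.91e-11, edgeR), and 3.39 without clusters 2 and 11. In all, 5 of the 10 members were called in germ-like cells (2 higher, 3 lower), beside 76.8% of all genes (36.5% higher, 40.2% lower). Axin2 was higher by 0.35 ± 0.10 on the log2 scale (adjusted p = 0.003), with 68.4, 54.5 and 65.9 CPM. These values overlap those of epithelial-like and pre-granulosa-like cells. The mean it was set against includes the stromal-like level of 31.0 ± 3.15 CPM. Nkd1 was lower, at 33.0, 27.2 and 30.6 CPM (-1.27 ± 0.13, adjusted p = 1.07e-09), so the feedback genes did not move together in these cells. Sp5, at 43.3 ± 2.56 CPM, was not called (-0.33, adjusted p = 0.0720, edgeR), but was called lower with the lot as a replicate block (-0.32, adjusted p = 0.00627) and with no filter on low counts (-0.40, adjusted p = 0.0258). Wif1 was called lower (-0.99, adjusted p = 0.00569), and that call was lost without lot 30 (adjusted p = 0.0943).

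In endothelial-like cells (174, 88 and 87 cells) 9 of the 10 members were called against the same mean, beside 41.8% of all genes (18.1% higher, 23.7% lower), and 8 of the 9 were lower. No UMI of Notum was found among 5946276 UMIs, which allows up to 0.505 CPM (3 counts over the class) and makes the level at least 5.2-fold lower than the arithmetic mean CPM of the 3 large classes. The call of Notum was lost without lot 26 (adjusted p = 0.0524), and that of Wif1 (-2.08, adjusted p = 0.0266) was lost with any 1 lot left out (0.0534 to 0.233). Dkk2 stood at 12.7, 0.646 and 15.0 CPM, with lot 29 far below the other lots. It was called higher against the mean of log2 levels (log2 fold change 2.02 ± 0.38, adjusted p = 1.15e-04, edgeR), which the low pre-granulosa-like level enters with equal weight. In CPM, the endothelial-like mean of 9.44 was below the arithmetic mean of the 3 large classes, 10.9, and lay between the epithelial-like and stromal-like levels. Lot 29 is the one in which 34.1% of endothelial-like cells had a Y-linked UMI, and with such cells left out the log2 fold change was 2.22. Among the readouts Lef1 was the least reduced, at 41.0, 27.8 and 44.3 CPM (-0.51 ± 0.12), and with cells thinned to 4000 UMIs it was no longer called (-0.06, adjusted p = 0.852).

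Because cells of a class differed in depth, the share of cells with at least 1 UMI of a gene was taken after thinning each cell to 4000 UMIs (28136 cells, with 835 shallower cells left out). Sp5 was detected in 28.4% ± 2.7 (SD, n = 3 lots) of pre-granulosa-like, 26.3% ± 2.4 of epithelial-like, 5.33% ± 0.27 of stromal-like and 1.82% ± 1.64 of Sertoli-like cells. In red blood cell-like cells, which should lack it, the share was 1 of 74 cells. Sfrp1 was detected in 61.2% ± 1.0 of the stromal-like, 22.8% ± 2.4 of the epithelial-like and 9.72% ± 0.77 of the pre-granulosa-like class, against 6.68% ± 5.81 in red blood cell-like cells. Before thinning, the stromal-like share of Sfrp1 was 79.9% and that of Sp5 12.51%, with a median of 7790 to 10054.5 UMIs per stromal-like cell in a lot, 8202 to 11055 per pre-granulosa-like cell, and 7490.5 to 11489 in red blood cell-like cells.

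Even in the class where it was highest, Dkk2 was found in a minority of cells, 5.92% ± 1.43 of stromal-like cells after thinning (8.43% before), and in 10 of 12732 pre-granulosa-like cells. Notum was detected in 5.76% ± 0.70 of the germ-like and 0.673% ± 0.086 of the pre-granulosa-like class. Of the 4 readouts Axin2, Nkd1, Sp5 and Lef1, at least 1 was detected in 67.2% ± 1.9 of epithelial-like, 62.4% ± 2.1 of pre-granulosa-like, 42.4% ± 2.6 of stromal-like and 13.5% ± 0.9 of Sertoli-like cells. The stromal-like share includes cells in which Nkd1 alone was detected.

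Members detected in the same cells were described without a test. Among stromal-like cells with a Dkk2 UMI, 87.2% ± 0.9 also had one of Sfrp1, against 59.6% ± 1.4 of those without. Sfrp2 was found in 27.1% ± 9.0 of the cells with Dkk2 and in 7.91% ± 1.46 of the cells without it. Sp5 ran the other way and was found in 4.04% ± 0.19 of stromal-like cells with an Sfrp1 UMI and in 7.36% ± 0.45 of those without. Called doublets were kept here. With them left out, the share of all stromal-like cells with Sp5 fell from 5.33% to 4.00%, and their part in the pairing was not tested. Among epithelial-like cells, Lef1 was detected in 25.0% ± 0.5 of cells with Axin2 and in 22.2% ± 1.7 of cells without it, a small difference in sparse counts.

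**Figure D5:**
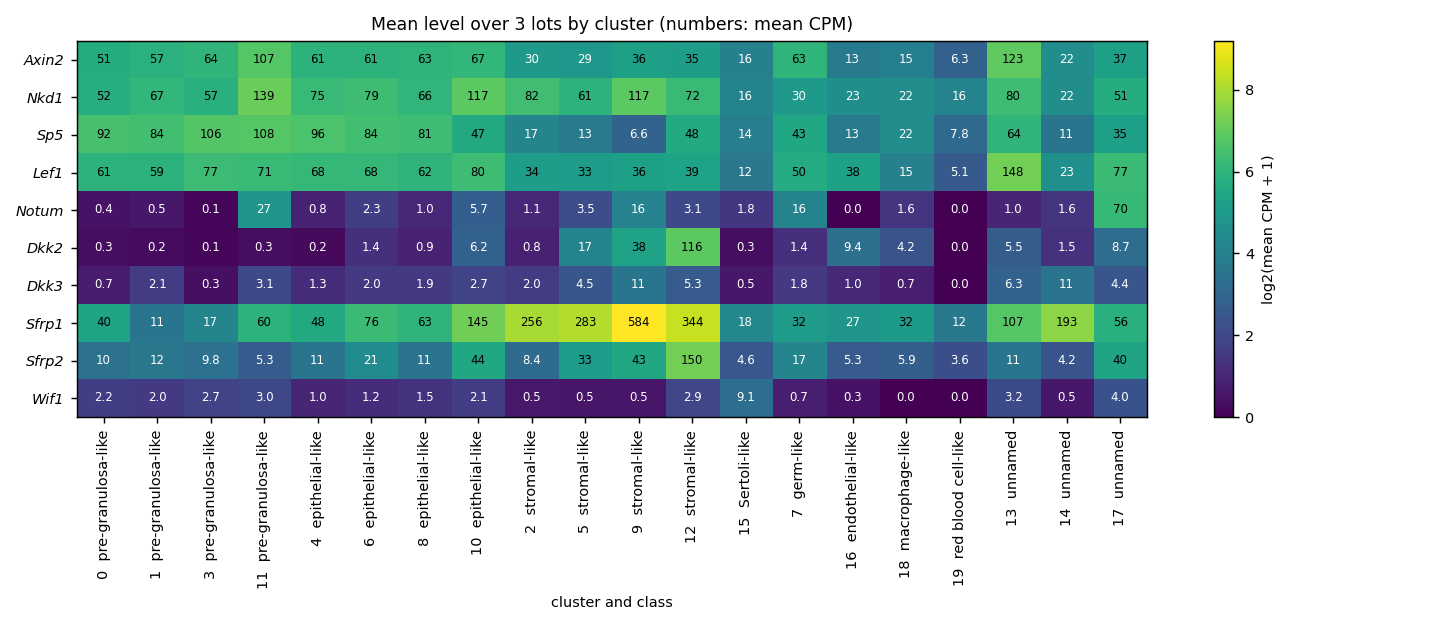
Mean level over 3 lots of each gene (rows) in each of the 20 clusters (columns, with the class named), colored by log2(mean CPM + 1) and printed as mean CPM. Read along a row, Dkk2 peaks in stromal-like cluster 12, Sfrp1 in stromal-like cluster 9, Notum in clusters 17 and 11, and Axin2 and Lef1 in unnamed cluster 13.

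Over the mean levels of the 20 clusters, Axin2 correlated with Lef1 (Pearson r = 0.91), Nkd1 (0.81) and Sp5 (0.81), but with Notum by 0.30 only. Dkk2 correlated with Sfrp2 by 0.80 and with Sfrp1 by 0.69. These values are descriptions over 20 clusters that share the same 3 libraries and differ in depth and size. Among 13132 genes compared over 60 sums of cluster and lot, the gene most like Axin2 was Lef1 (r = 0.889), followed by Rab11fip2 and Dab1. The pattern of Sfrp1 was most like those of the collagen gene Col1a2 (r = 0.932), Islr and Cd248. That of Dkk2 was most like those of Foxd1 (r = 0.859), Pcdh19 and Vegfc, and that of Sfrp2 most like that of Shisa3 (r = 0.840). For Nkd1 it was Plekhh2 (0.893), for Sp5 Olfm1 (0.855), for Notum Fgf17 (0.812) and for Dkk3 Slit3 (0.801).

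Other Wnt genes were described from lists of 10 targets, 10 antagonists, 16 receptors, 16 genes of the cascade and 8 ligands and R-spondins. Of the other targets 9 could be tested and 7 were called between pre-granulosa-like and stromal-like cells (4 higher and 3 lower in pre-granulosa-like cells, median log2 fold change 0.09 against 0.03 for all genes), where 48.6% of all genes were called, 25.9% higher and 22.7% lower. Lgr5, a receptor of R-spondins and a target, stood at 79.3 ± 18.1 CPM in pre-granulosa-like and 12.4 ± 5.39 CPM in stromal-like cells (log2 fold change 2.77 ± 0.27, adjusted p = 1.91e-09, edgeR). Tnfrsf19 (2.42 ± 0.17) and Rnf43, which removes Frizzled receptors from the surface (2.31 ± 0.26), were higher as well. Of the 5 other antagonists tested, 3 were called and all 3 were lower in pre-granulosa-like cells, beside the same 22.7% of all genes, with a median of -3.52 over the 5. Dkk1 stood at 0.506 ± 0.126 CPM in pre-granulosa-like, 4.85 ± 1.30 CPM in epithelial-like and 6.22 ± 1.37 CPM in stromal-like cells (-3.52 ± 0.31 against stromal-like cells, adjusted p = 5.62e-09). Sostdc1 (-5.27 ± 0.62) and Frzb (-4.61 ± 0.60) were lower too.

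Of 15 receptors tested, 10 were called between pre-granulosa-like and stromal-like cells (4 higher, 6 lower), beside 48.6% of all genes. The non-canonical co-receptor Ror2 stood at 0.852 ± 0.284 CPM in pre-granulosa-like and 12.8 ± 1.42 CPM in stromal-like cells (-3.74 ± 0.21, adjusted p = 3.89e-14, edgeR). Fzd7 (-2.45 ± 0.16) and Fzd10 (-3.10 ± 0.55) were lower as well. In the cascade 4 of 16 genes were called (1 higher, 3 lower), a share below that of all genes. Tcf7l1, mostly a repressor among the TCF/LEF factors, was lower in pre-granulosa-like cells (-1.20 ± 0.11, adjusted p = 1.08e-09), Pygo1 was lower (-0.69 ± 0.12), and Btrc, which targets β-catenin for degradation, was higher (0.72 ± 0.11).

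The ligands were called in 7 of 7 cases tested (5 higher, 2 lower in pre-granulosa-like cells), beside the 25.9% higher and 22.7% lower among all genes. Wnt4 stood at 631 ± 41.4 CPM in pre-granulosa-like, 258 ± 24.3 CPM in stromal-like and 150 ± 25.3 CPM in epithelial-like cells. Rspo1 stood at 264 ± 16.2 CPM, 50.7 ± 6.72 CPM and 129.5 CPM on average in the same order (2.50 ± 0.21 between pre-granulosa-like and stromal-like cells, adjusted p = 1.39e-10, edgeR). Wnt5a, a mostly non-canonical ligand, went the other way, at 35.3 ± 2.59, 153 ± 9.46 and 122 ± 6.62 CPM. In the pre-granulosa-like class Wnt6 stood at 667 ± 16.96 CPM at 837 ± 148 CPM in the Sertoli-like class, which differed by 0.16 on the log2 scale (adjusted p = 0.675), while Wnt4 and Rspo1 were lower in Sertoli-like cells (-2.72 ± 0.31 and -2.96 ± 0.26). Over the 20 clusters, Sp5 correlated with Rspo1 by 0.86 and Sfrp1 with Wnt5a by 0.87.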

How the data were processed

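Per the labels and the study's methods, the authors identified barcodes with UMI-tools, mapped the reads with STAR 2.7 (GRCm38), used those that mapped uniquely, assigned them to genes with featureCounts 2.0.1 and deposited unnormalized UMI counts per gene and cell for 3 lots. The annotation release and strand setting are not given in the sources used here. Axin2, Lef1, Notum and Sfrp2 overlap antisense genes, and Nkd1 and Lef1 a gene on the same strand, none of them in the count tables, so their reads cannot be told apart. 0 columns of other samples were present.

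Kept cells were clustered in Seurat 5.3.0 (R 4.3.3; 2000 variable genes, 50 principal components, resolution 0.8), with 70 Wnt genes held out of the variable genes. A cluster was named where a marker list scored at least 1, led the next by 0.25, and had 3 raised and 2 widely detected markers, unless at least 2 of its 10 leading genes were markers of another list and outnumbered its own. Clusters 2 and 11, with 1 such gene each, kept their names. Scrublet in scanpy 1.11.5 called 1548 doublets, which stayed in except in an alternative. UMIs were summed per class and lot (24 sums, at least 10 cells each, smallest sum 184947 UMIs) and the quasi-likelihood test of edgeR 4.0.16 was applied to them, after filterByExpr and TMM scaling, with a threshold of 0.05. Standard errors were taken from the log2 fold change and the F statistic. The main model had no lot term. The sums of a lot come from 1 pool and are paired by construction: in 54 of 84 pairs of sums the deviations correlated above 0.1 (median 0.131). Blocked values are given beside results they change.

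On simulated counts for pre-granulosa-like against stromal-like cells (13208 genes), the test called 29 of 67 genes changed 1.5-fold, 64 of 67 changed 2-fold and 66 of 66 changed 4-fold, and 4.22% of calls were false. The simulation gave all genes the same dispersion and had no lot effect, unlike the real sums, which are paired by lot. It changed no gene at levels as low as those of Notum, Dkk3 and Wif1. These rates therefore need not hold for the members. Lots are the replicates (n = 3), each a pool of animals, fold-change intervals come from the edgeR fit over lots and include the spread between them, and floors (3 counts) cover counting error only. Genes named are the 10 members, in each list of other Wnt genes the 3 with the largest change among those called between large classes, Wnt4, Wnt6, Wnt5a and Rspo1, the genes most alike each member, and leading genes of clusters. The members and lists were chosen with earlier results of these data known. Alternatives were DESeq2 1.42.0, RLE size factors, no filter, the lot as a block, each lot left out, doublets left out, resolutions 0.4 and 1.2, held-out genes put back and thinning to 4000 or 2000 UMIs. Leaving out clusters 2 and 11, other single clusters, or cells with a Y-linked UMI was added after the data were seen. Positions are from GENCODE M21 and RefSeq.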

Additional observations from a re-analysis of the deposited data

Results flagged for a closer look

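4 values came from clusters that no comparison used, because they stayed unnamed, and in each the lowest lot lay above the highest lot of every named class taken as a whole. No marker list met every condition for a name in clusters 13 and 17, though their best scores (2.13 and 6.14) were above 1. In cluster 14 markers of another list were among the leading genes. In cluster 13, led by Lars2, Pla2r1 and Nfat5, Axin2 stood at 123 ± 26.7 CPM (lowest lot 93.3, against at most 68.4 in any named class, though cluster 11 alone reached 112) and Lef1 at 148 ± 10.2 CPM (lowest lot 137, against at most 74.4). The median cell of that cluster had 2665 UMIs, 0.242 times the median of its lots, and the part of this depth in the 2 values was not tested. In cluster 17, led by the chromaffin genes Chgb, Chga and Phox2a, Notum stood at 69.7 ± 37.6 CPM over 37, 82 and 26 cells (lowest lot 35.0, against at most 19.1). In cluster 14, led by the steroidogenic genes Insl3, Cyp11a1 and Cyp17a1, Dkk3 stood at 10.6 ± 5.38 CPM (lowest lot 6.999, against at most 4.95 in a class), but stromal-like cluster 9 was as high on its own, at 10.9 ± 0.96 CPM. In cluster 14, 64.6 to 77.4% of its cells had a Y-linked UMI.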

How the results depend on the processing

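The 60 tests of a member in a comparison were repeated under 14 alternatives, which gave 818 values: 771 kept their direction and side of the threshold, 36 lost a call, 10 gained one and 1 reversed, Notum in pre-granulosa-like against epithelial-like cells without clusters 2 and 11 (-2.27). The number of members called was 3 instead of 5 in pre-granulosa-like against epithelial-like cells without lot 29 and without lot 30 (range 3 to 4 with 1 lot left out), and 4 instead of 7 in Sertoli-like against pre-granulosa-like cells thinned to 4000 UMIs, where 8 members could be tested. With cells that had a Y-linked UMI left out, the Sertoli-like comparison could not be fitted, since lot 30 kept 1 such cell. Without clusters 2 and 11, chosen after seeing the data, 9, 7, 8, 6, 6 and 9 members were called in the 6 comparisons, in the order of the report, instead of 9, 5, 8, 7, 5 and 9. The cause of the other changes was not tested. The replicate block called 3 more member tests (Nkd1 at -0.19 and at -0.32, Sp5 in germ-like cells at -0.32) and changed no other call of a member. Counts of all genes called moved by over 1.5 times in epithelial-like against stromal-like cells (4201, 6962 with the replicate block, 2498 without lot 30), in Sertoli-like cells thinned (3216 against 5245) and in endothelial-like cells thinned (3470 against 5778) or without lot 26 (3629). The smallest sums limit Wif1, Dkk2, Dkk3 and Notum in the small classes, where few UMIs were counted.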
